A study of Mus musculus with 6 samples.

Results

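The genes described here handle the mineral of bone. They make or remove the inhibitor pyrophosphate, release or import phosphate, and import citrate. The set was chosen by gene symbol, with 10 genes listed (Alpl, Phospho1, Smpd3, Sgms2, Enpp1, Ank, Slc20a1, Slc20a2, Phex and Slc13a5). Of these, 9 had a row among the 23930 amplicons of the table, with 1 amplicon per gene, and the level of Phospho1 was not analysed here. Total RNA came from the shaft of the humerus of E16.5 mouse embryos, in 3 control and 3 knockout libraries. Controls carried the genotype Stat3C/+, with no Cre driver named, and are also called wild type by the labels. Knockouts carried Prrx1Cre together with Stat3C/C, so the driver and the loss of Stat3 cannot be told apart. Prrx1Cre is active in limb bud mesenchyme, the source of bone, cartilage and tendon cells of the limb, while blood-derived cells and muscle fibres come from other lineages. The labels do not say whether the libraries came from separate embryos or litters, so p-values measure the spread among these libraries alone, and that spread may be technical.

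Bone mineral starts in small vesicles that osteoblasts and hypertrophic chondrocytes shed into the matrix, and it then spreads along collagen. Inside the vesicle, sphingomyelin is cut to phosphocholine by the sphingomyelinase encoded by Smpd3, and Phospho1 frees phosphate from phosphocholine. Outside it, Enpp1 makes pyrophosphate from nucleotides, Ank supplies it from the cell, and the alkaline phosphatase encoded by Alpl destroys it while releasing phosphate. Citrate, which osteoblasts deposit in the mineral, enters cells through the transporter encoded by Slc13a5.

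In knockout bone, 5 of the 9 genes were lower (Slc13a5, Smpd3, Sgms2, Alpl and Phex), 2 were higher (Ank and Slc20a1), and 2 did not pass the test (Enpp1 and Slc20a2). The call required a Benjamini-Hochberg adjusted p under 0.05 in limma, a linear model fitted across all genes, and over the 12846 genes tested it was met by 11.0% as lower and 5.71% as higher. The median log2 fold change, knockout over control, was -0.46 over the 9 genes and -0.06 over all genes tested. The genes were listed with earlier results of these data known, so their excess over all genes is a description and not a test. All 9 passed the filter on low values, an average over the libraries of 1 RPM or more (reads per 1000000 reads of the library). The 3 knockout values did not overlap the 3 control values in the 7 called genes, 5 below and 2 above, where 33.8% of all genes tested did not overlap, 21.9% below and 11.9% above. Of all calls, 34.2% were higher with the deposited scaling and 52.9% with TMM factors (a scaling of each library to the bulk of its genes), and with TMM factors the counts for the 9 genes were again 5 lower and 2 higher, against 7.22% and 8.13% of all genes.

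**Figure D1:**
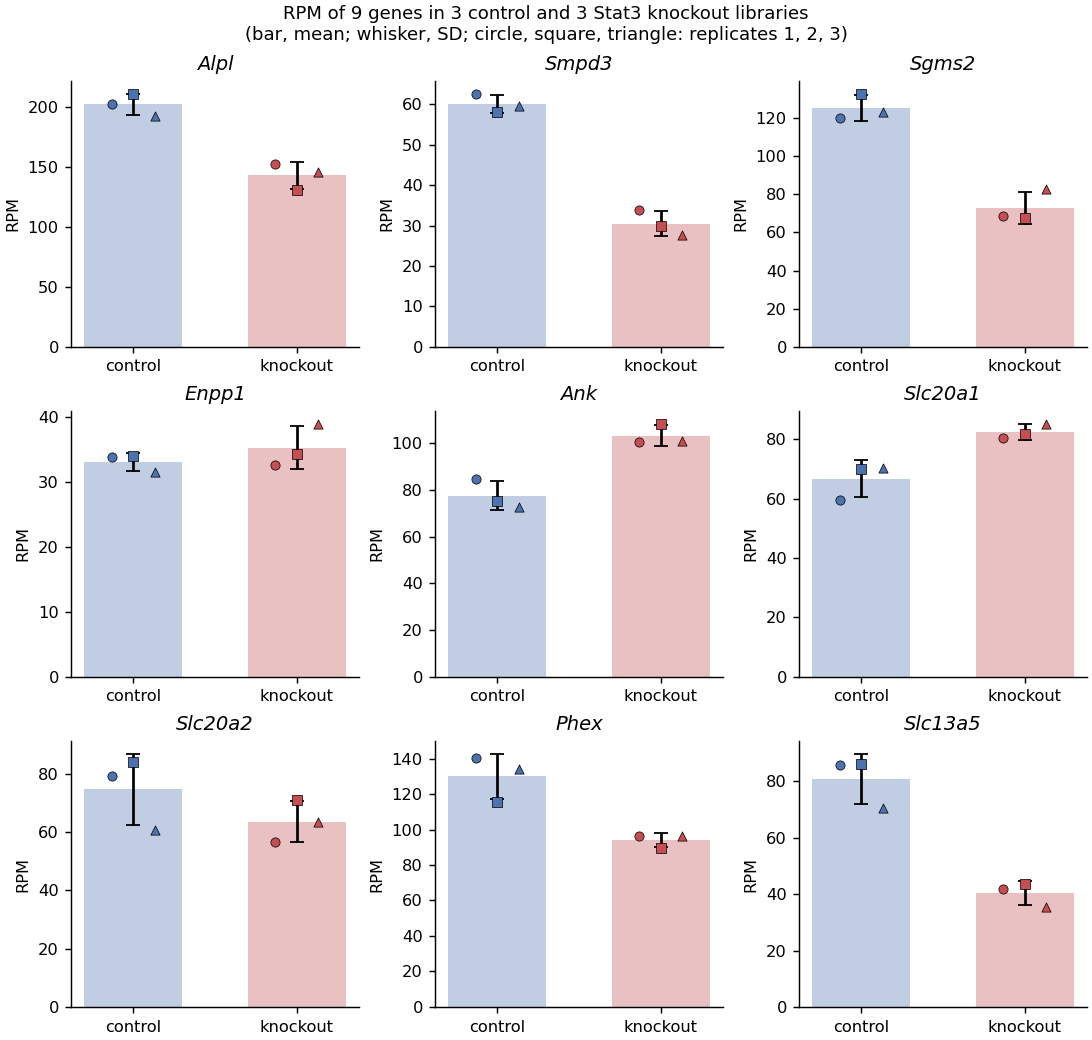
RPM of each of the 9 genes (vertical axis) in control and knockout libraries, with bars for the mean, whiskers for the SD and a point for each of the 3 libraries of a group. Points of the groups are apart in 7 panels and overlap for Enpp1 and Slc20a2.

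Depth was 9126493 to 13376550 reads per library, recovered from the deposited values, and the 9 genes had 271 to 2827 reads each in a library. Counting error alone is 1.88% to 6.07% of a value at those numbers. It covers counting only, since the reads carry no molecular identifiers and many can stem from 1 molecule. The targeted gene, Stat3, was at 211, 201 and 211 RPM in controls and at 208, 201 and 170 RPM in knockouts (log2 fold change -0.11 ± 0.08 SE, limma adjusted p = 0.380). The sources used here do not say whether its amplicon lies in the deleted part, so this level is no check of the labels. Bone and cartilage markers were present in every library, for example the collagen gene Col1a1 at 24756 to 30725 RPM. Skeletal muscle markers were abundant too, with a sum over 12 genes of 35672 to 40011 RPM in controls, against 31895 to 34755 RPM in knockouts.

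Alpl encodes tissue-nonspecific alkaline phosphatase, the enzyme of the osteoblast surface and of matrix vesicles whose loss causes hypophosphatasia (gene on chromosome 4 from 137741733 to 137796384, GRCm38). It was at 203, 211 and 193 RPM in control replicates 1 to 3 and at 153, 131 and 146 RPM in knockout replicates 1 to 3. The highest knockout library lay 40.2 RPM below the lowest control. The mean fell from 203 ± 9.06 to 143 ± 11.2 RPM (SD, n = 3 each), to 70.8% of the control level, with a log2 fold change of -0.50 ± 0.08 (SE, limma adjusted p = 2.24e-04).

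Enpp1, on the other side of the pyrophosphate balance, encodes the ectoenzyme that generates pyrophosphate (chromosome 10, 24637914 to 24712159). Its values were 33.8, 34.0 and 31.5 RPM in controls, against 32.6, 34.3 and 39.0 RPM in knockouts. The groups overlapped, and only knockout replicate 3 lay clearly above the controls. The log2 fold change was 0.09 with a 95% interval of -0.13 to 0.31 (limma adjusted p = 0.624), which leaves room for a modest change in either direction.

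Ank encodes a membrane protein that carries pyrophosphate precursors and citrate out of the cell and holds back mineral deposition in joints (chromosome 15, 27466677 to 27594909). It was at 84.7, 75.3 and 72.6 RPM in controls and at 100.3, 108 and 100.8 RPM in knockouts. Every knockout library was above every control, with a gap of 15.6 RPM. The mean rose from 77.5 ± 6.36 to 103 ± 4.45 RPM (SD, n = 3 each), 1.33-fold, with a log2 fold change of 0.41 ± 0.09 (SE, limma adjusted p = 0.00298).

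Ratios of genes within a library do not move with the scaling between libraries, apart from a small effect of the 1 RPM added. The balance of these 3 genes was therefore also read that way. A ratio of amplicons depends on how well each is amplified, so its level means little and its difference between groups is what can be compared. On a log2 scale with 1 RPM added, Alpl over Ank was 1.25, 1.48 and 1.40 in controls and 0.60, 0.27 and 0.53 in knockouts. The drop of this ratio, 1.88-fold, was the largest of the 5 ratios examined. Alpl over Enpp1 was 2.55, 2.60 and 2.58 in controls and 2.20, 1.90 and 1.88 in knockouts, a difference of -0.58. The controls were within 0.05 of each other on this ratio and every knockout library was lower. Enpp1 over Ank was -1.30, -1.12 and -1.18 in controls and -1.59, -1.63 and -1.35 in knockouts, again without overlap. For each of these 3 ratios the exact two-sided permutation test gave p = 0.1, the smallest that 3 against 3 can give (0.167 adjusted over 5 ratios), so the design cannot bring them under 0.05. Alpl was lower and Ank higher in every knockout library, so the lack of overlap of Alpl over Ank follows from those values. The 3 ratios are built from the same 3 genes and are not separate evidence.

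**Figure D2:**
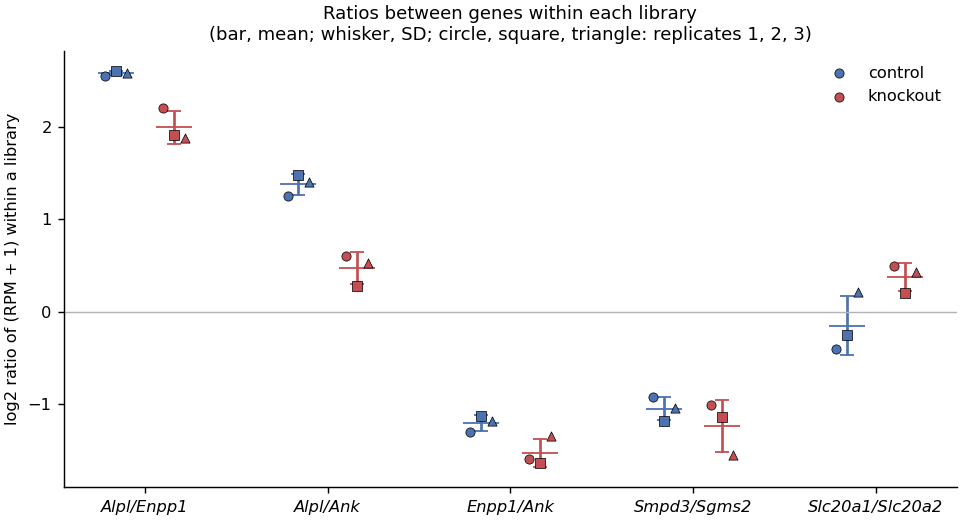
Log2 ratio of (RPM + 1) between 2 genes within a library (vertical axis) for 5 ratios, with a point per library, a bar for the mean and whiskers for the SD. Control and knockout points are apart for Alpl/Enpp1, Alpl/Ank and Enpp1/Ank and overlap for the other 2 ratios.

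Smpd3 encodes neutral sphingomyelinase, the membrane enzyme that cuts sphingomyelin to ceramide and phosphocholine and whose loss in the fragilitas ossium mouse leaves bone and cartilage poorly mineralized (chromosome 8, 106252548 to 106337988). Its values were 62.7, 58.2 and 59.5 RPM in controls, against 33.8, 30.02 and 27.7 RPM in knockouts. The controls were tightly grouped and all knockout libraries lay at least 24.4 RPM below them. The mean fell to 50.7% of control, from 60.2 ± 2.30 to 30.5 ± 3.07 RPM (SD, n = 3 each), with a log2 fold change of -0.96 ± 0.10 (SE, limma adjusted p = 8.69e-07). A lower log2 fold change was seen in 0.304% of the genes tested.

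Sgms2 encodes a sphingomyelin synthase of the plasma membrane, which makes the lipid that Smpd3 cuts and is mutated in a form of human skeletal fragility (chromosome 3, 131318985 to 131491411). It was at 120 RPM, 133 RPM and 123 RPM in controls and at 68.8, 67.4 and 82.7 RPM in knockouts. The knockout values were all lower, and knockout replicate 3 was the closest to the controls. The mean fell from 125 ± 6.76 to 73.0 ± 8.44 RPM (SD, n = 3 each), to 58.2% of control (log2 fold change -0.78 ± 0.09 SE, limma adjusted p = 5.03e-06). Smpd3 over Sgms2 within a library was -0.92, -1.18 and -1.04 in controls and -1.01, -1.14 and -1.54 in knockouts on the log2 scale. The groups overlapped on this ratio and its difference was -0.18 (exact two-sided permutation p = 0.5, 0.5 adjusted over 5 ratios), in a design that cannot go below 0.1. One library sets much of its size. The difference was -0.03 without knockout replicate 3, -0.12 without control replicate 1 and -0.30 without knockout replicate 1.

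RefSeq promoter windows on GRCm38.p6, from 250 bases before to 50 after each annotated start, were found for 8 of the 10 listed genes, 16 windows in all. Smpd3 and Slc20a2 had no window and were not searched. They were searched on both strands for TTCNNNGAA, the core of a STAT site, and for TGTGGT, the core of a RUNX site. No match of one overlapped a match of the other. Sgms2, with 6 windows, held both, and was the sole gene of the 8 with TTCNNNGAA, which 9.55% of all 27025 genes in the table hold in at least 1 window (8.30% of all 32851 windows). TGTGGT was found for 3 of the 8 (Sgms2, Enpp1 and Slc20a1), for each in 1 of the 16 windows. It is held by 18.9% of all genes and by 16.8% of all windows. The 8 genes had 16 windows, so the share of windows is the closer comparison. The Sgms2 and Enpp1 stretches are shown because Sgms2 fell and Enpp1 did not pass the test while both hold the RUNX core, and because the STAT core occurs in Sgms2 alone. All run 5′ to 3′ on the strand of the gene, with the matched letters in capitals. The Enpp1 match is the complement strand's TGTGGT.
Sgms2 STAT core, chr3:131489076-131489144, minus strand, 72 bases before a start: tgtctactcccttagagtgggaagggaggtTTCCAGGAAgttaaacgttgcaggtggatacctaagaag
Sgms2 RUNX core, chr3:131491528-131491593, minus strand, 120 bases before another start: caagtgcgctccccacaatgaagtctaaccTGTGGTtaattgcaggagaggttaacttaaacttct
Enpp1 RUNX core, chr10:24712268-24712333, minus strand, 144 bases before the start: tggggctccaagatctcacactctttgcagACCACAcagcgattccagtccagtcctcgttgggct
The Slc20a1 match, 77 bases before a start, is not shown because an annotated exon overlaps the stretch around it. The windows of Alpl, Phospho1, Ank, Phex and Slc13a5 held neither set of letters. A match is a description of the sequence and not a binding site, and which start the libraries used cannot be read from 1 amplicon per gene.

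Of the phosphate importers, Slc20a1 encodes a sodium-coupled transporter that is abundant in mineralizing cells (chromosome 2, 129198764 to 129211616). It was at 59.7, 70.1 and 70.5 RPM in controls and at 80.3, 81.7 and 85.2 RPM in knockouts. The groups were apart by 9.81 RPM, with control replicate 1 the lowest of all. The mean rose from 66.8 ± 6.12 to 82.4 ± 2.55 RPM (SD, n = 3 each), 1.23-fold, and the log2 fold change was 0.30 ± 0.09 (SE, limma adjusted p = 0.0258). This call was lost without control replicate 1 (log2 fold change 0.23, adjusted p = 0.138), knockout replicate 2 (adjusted p = 0.0730) or knockout replicate 3 (adjusted p = 0.0673), and without a trend in the variance model (adjusted p = 0.0963). Slc20a1 passed only narrowly without control replicate 2 (limma adjusted p = 0.05 after rounding) and with no filter on low values (limma adjusted p = 0.0480).

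Slc20a2 encodes the second transporter of this family, known for brain calcification when mutated in people (chromosome 8, 22476788 to 22569612). It was at 79.1, 83.9 and 60.8 RPM in controls and at 56.6, 70.8 and 63.3 RPM in knockouts. Control replicate 3 lay within the knockout range, and the control SD of 12.2 RPM was the widest relative to its mean among the 9 genes, at 16.4%. The log2 fold change was -0.22 with a 95% interval of -0.45 to 0.01 (limma adjusted p = 0.181). Without control replicate 3 it was -0.36 and passed (limma adjusted p = 0.0258). Within a library, the log2 ratio of Slc20a1 over Slc20a2 was -0.40, -0.26 and 0.21 in controls and 0.50, 0.20 and 0.42 in knockouts. Control replicate 3 and knockout replicate 2 were nearly equal, so the groups overlapped. The difference was 0.52, and 0.40 to 0.70 with any 1 library left out. The exact two-sided permutation test gave p = 0.2 (0.25 adjusted over 5 ratios), and 3 against 3 cannot go below 0.1, so this test can neither show nor exclude a difference of this size.

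Phex encodes a membrane peptidase of osteoblasts and osteocytes whose loss causes X-linked hypophosphatemia through an excess of the hormone FGF23 (chromosome X, 157162075 to 157415312). It was at 140 RPM, 116 RPM and 134 RPM in controls and at 96.2, 89.4 and 96.3 RPM in knockouts. The knockout libraries were close together and all below the controls, of which replicate 2 was the lowest. The mean fell from 130 ± 12.7 to 94.0 ± 3.94 RPM (SD, n = 3 each), to 72.3% of control, with a log2 fold change of -0.46 ± 0.09 (SE, limma adjusted p = 0.00112).

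Slc13a5 encodes the sodium-coupled citrate importer of the plasma membrane, needed for normal citrate content of bone and tooth mineral (chromosome 11, 72241989 to 72267222). Its values were 85.7, 86.2 and 70.6 RPM in controls, against 41.9, 43.6 and 35.5 RPM in knockouts. Replicate 3 was the lowest in each group, and the gap between the groups was still 26.9 RPM. The mean fell to 49.9% of control, from 80.8 ± 8.90 to 40.3 ± 4.30 RPM (SD, n = 3 each), with a log2 fold change of -0.98 ± 0.10 (SE, limma adjusted p = 9.02e-07). This was the lowest fold change of the 9, and 0.280% of all genes tested had a lower one.

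**Figure D3:**
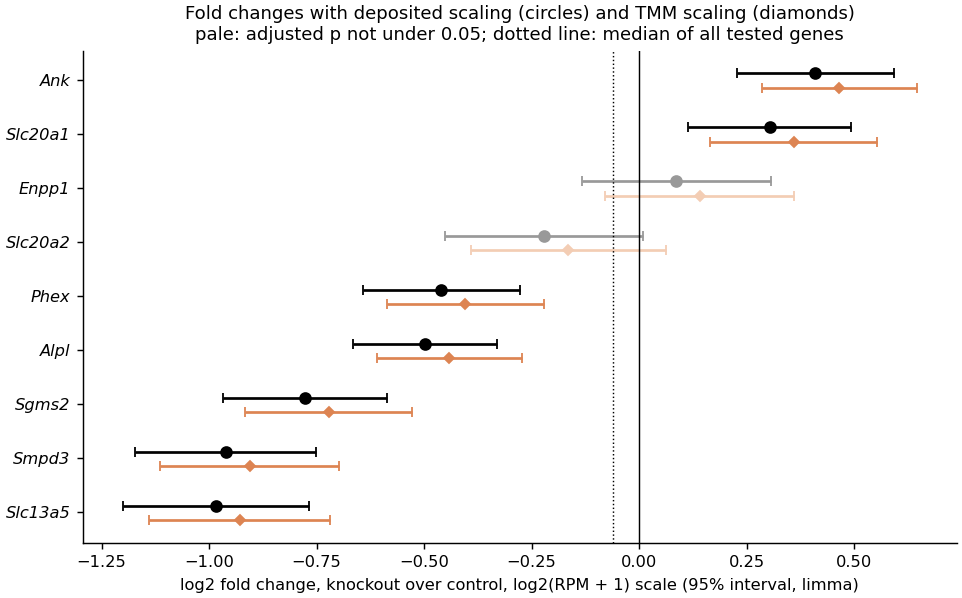
Log2 fold change, knockout over control, with its 95% interval (horizontal axis) for the 9 genes with the deposited scaling (circles) and TMM factors (diamonds), where pale symbols did not pass and the dotted line is the median of all genes tested, -0.06. Slc13a5 and Smpd3 sit near -1, Ank and Slc20a1 to the right of 0, and the order of the genes is the same with both scalings.

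No library was high or low over the whole set. Among controls, replicate 3 was the lowest for Alpl, Enpp1, Ank, Slc20a2 and Slc13a5, replicate 1 for Sgms2 and Slc20a1, and replicate 2 for Smpd3 and Phex. Among knockouts, replicate 3 was the highest for Sgms2, Enpp1, Slc20a1 and Phex and the lowest for Smpd3 and Slc13a5.

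In bulk tissue, fewer cells of a type and less RNA per cell cannot be told apart, so the marker genes of the cells that use this machinery are given beside it. Of 12 osteoblast markers tested, 6 were lower and none higher (median log2 fold change -0.23), and the summed level was 55569 to 59976 RPM in controls, against 50702 to 54947 RPM in knockouts. The largest part of that difference came from the bone sialoprotein gene Ibsp, named here after its values were seen, with means of 4328 and 2097 RPM. Col1a1, the largest part of the sum, had means of 28711 and 27669 RPM and was not called. Of 8 hypertrophic chondrocyte markers, 6 were lower and none higher (median -0.52, sums of 5929 to 6882 and 5138 to 5351 RPM), and 3 of those 6 are also on the osteoblast list. Of 8 osteocyte markers, 3 were lower and none higher (median -0.19, sums of 915.5 to 1047 and 915.5 to 998 RPM). Of 16 markers of resting and proliferating chondrocytes, 7 were lower and 1 higher (median -0.19). Their sum was 1618 to 1671 RPM in controls and 1759 to 1767 RPM in knockouts. The higher marker, Col11a1, named here after its values were seen, had means of 1008.5 and 1233.4 RPM. Col11a1 rose by more than the sum did, so the sum does not show a rise of these markers in general. None of these markers was at 0 in all libraries, and the osteocalcin genes Bglap and Bglap2 were not analysed here. The part of cell number in the fall of Alpl, Smpd3, Sgms2, Phex and Slc13a5 was not tested.

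Among other cells of the shaft, osteoclast markers had 2 higher and 1 lower of 10, macrophage markers 4 and 1 of 7, tendon and perichondrium markers 2 and 0 of 6, neutrophil markers 0 and 6 of 6, and skeletal muscle markers 0 and 4 of 12. Summed levels without overlap between groups were seen for osteoclasts (895 to 955 RPM in controls, 1231 to 1253 RPM in knockouts), tendon (3709 to 3912 and 4607 to 4921 RPM), macrophages (384 to 407 and 483 to 522 RPM), neutrophils (92.9 to 95.3 and 39.2 to 43.4 RPM) and skeletal muscle (35672 to 40011 and 31895 to 34755 RPM). The first 3 were higher in knockouts and the last 2 lower. Most of the osteoclast difference came from Mmp9, a matrix protease named here after its values were seen, with means of 411 and 671 RPM. The other 9 osteoclast genes summed to 499 to 533 RPM in controls, against 548 to 589 RPM in knockouts, and the median log2 fold change of the list was 0.09. Most of the tendon difference came from Tnmd (means of 1502 and 2257 RPM), and most of the macrophage difference from Lyz2 (134 and 230 RPM). Both were also named after their values were seen, so each of these sums leans on a single gene. The median log2 fold changes of the tendon and macrophage lists were 0.15 and 0.48. The part of these cell types in the rise of Ank and Slc20a1 was not tested.

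The 9 genes were also set against each of the 12 osteoblast markers within a library, and the same ratio was taken for every other gene tested. Col1a1, the main collagen of bone, had a log2 fold change of -0.06 (limma adjusted p = 0.698). Relative to Col1a1, 5 of the 9 genes were lower without overlap, against 8.63% of all genes, and 2 were higher, against 11.6%. Runx2, a transcription factor that starts osteoblast formation, fell by 0.62 on the log2 scale (limma adjusted p = 8.84e-05). Relative to Runx2, Smpd3 and Slc13a5 were lower in all knockout libraries (differences of -0.34 and -0.36), as were 0.366% of all genes. Ank, Slc20a1 and Enpp1 were higher, but so were 79.5% of all genes, and Alpl, Sgms2, Phex and Slc20a2 overlapped.

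The bone sialoprotein gene Ibsp fell by 1.04 (limma adjusted p = 4.00e-10). Relative to Ibsp 7 of the 9 were higher and none lower, near the shares of all genes (96.9% higher and 0.101% lower), so these counts say little about the set. Smpd3 and Slc13a5 were the 2 that overlapped, with differences of 0.08 and 0.06, while Sgms2, Alpl and Phex were higher by 0.27, 0.54 and 0.58. Over all 12 markers, Slc13a5 was lower relative to 9, Smpd3 to 8, Sgms2 to 7, Alpl to 6 and Phex to 4 without overlap. Alpl and Phex were higher relative to 2 each, Sgms2 to 1, and Slc13a5 and Smpd3 to none. Ank was higher relative to 11 and lower relative to none, and Slc20a1 higher relative to 10 and lower relative to none. The share of all genes that were lower ran from 0.0779% (relative to Pth1r) to 29.5% (Sparc). The share that were higher ran from 2.71% (Postn) to 98.2% (Pth1r), so each count depends on the markers taken. The markers share libraries and the differences between genes were not tested.

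**Figure D4:**
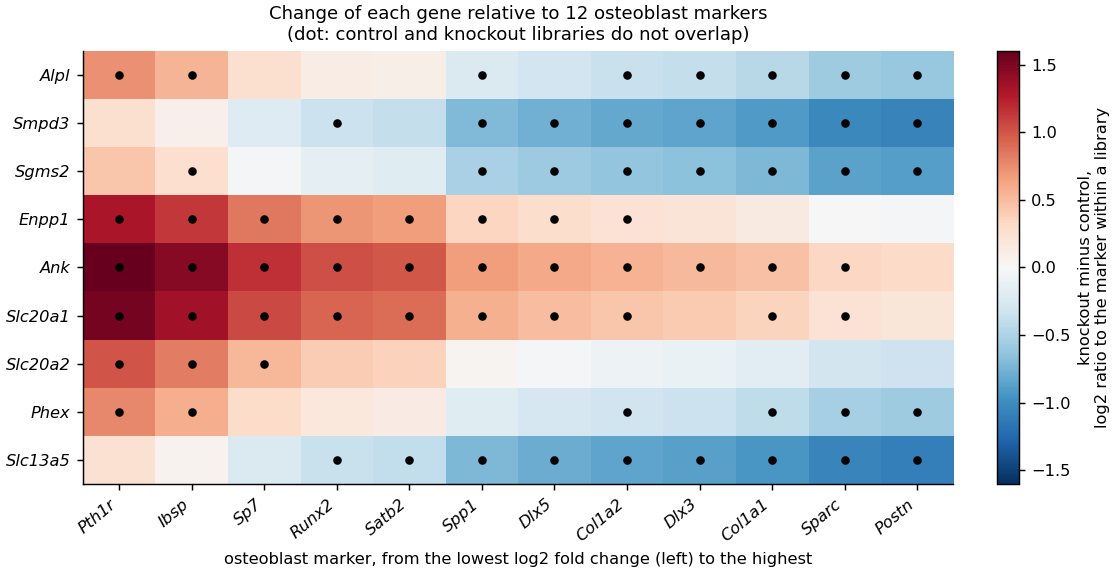
Knockout minus control in the log2 ratio of each gene (rows) to each of 12 osteoblast markers (columns, from the lowest log2 fold change to the highest) within a library, in colour, with a dot where the groups do not overlap. Relative to the markers Ank was higher without overlap for 11, and Slc13a5 lower for 9, with Pth1r, Ibsp and Sp7 the exceptions.

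Other genes of these pathways were called about as often as genes at large. Over 8 lists with 92 genes tested, 4 were higher and 13 lower, 18.5% against 16.7% of all genes tested, with a median log2 fold change of -0.04. The lists hold relatives and partners of the genes above.

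In the list of other sphingomyelin and ceramide genes, 3 of 20 were lower and none higher (median log2 fold change -0.03). They were the ceramide synthase gene Cers5 (36.2 ± 2.28 to 23.1 ± 2.12 RPM), Ugcg, which encodes the enzyme that turns ceramide into glucosylceramide (27.7 ± 1.04 to 18.8 ± 1.12 RPM), and the desaturase gene Degs1 (93.1 ± 7.16 to 76.5 ± 2.11 RPM), all SD with n = 3 each. Their log2 fold changes were -0.63, -0.54 and -0.28. Sgms1, the Golgi relative of Sgms2 and outside the naming rule, was at 78.7, 103 and 93.1 RPM in controls, against 94.3, 92.0 and 109.7 RPM in knockouts and did not pass (log2 fold change 0.11, limma adjusted p = 0.491). Whether Sgms1 and Sgms2 changed differently was not tested. Of 12 phosphocholine genes, Pcyt2, an enzyme of phosphatidylethanolamine synthesis, was lower (19.3 ± 2.37 to 13.04 ± 1.87 RPM) and none was higher (list median -0.10).

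In the list of pyrophosphate and extracellular nucleotide genes, 1 of 14 was lower and none higher (median -0.0021). It was Panx3, a channel of osteoblasts and hypertrophic chondrocytes that can release ATP, the substrate of Enpp1. It was at 132, 133 and 117 RPM in controls and at 50.3, 43.2 and 40.3 RPM in knockouts, a log2 fold change of -1.50 (limma adjusted p = 1.53e-10).

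Among the other phosphate genes, 2 of 11 were higher and 2 lower (median -0.01). Slc37a2, a sugar phosphate exchanger of macrophages and osteoclasts, rose from 11.9 ± 2.14 to 19.5 ± 2.94 RPM. Galnt3, whose product protects FGF23 from cleavage, fell from 15.7 ± 1.09 to 10.1 ± 0.968 RPM (SD, n = 3 each). Fam20c, the kinase of secreted phosphoproteins, was called higher at 7.47, 5.98 and 6.08 RPM in controls, against 10.4, 10.8 and 7.46 RPM in knockouts (limma adjusted p = 0.0464), with knockout replicate 3 just inside the control range. The remaining lower gene, Dmp1, is outside the naming rule and encodes a matrix protein of osteocytes (log2 fold change -0.33).

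Of 12 citrate genes, Idh1, the cytosolic isocitrate dehydrogenase gene, was lower (72.3 ± 8.45 to 55.7 ± 1.39 RPM, SD, n = 3 each) and none was higher (list median -0.13). The relatives of Slc13a5 were near the floor, with Slc13a2, Slc13a3 and Slc13a4 at no more than 0.897 RPM in any library. In the matrix vesicle, calcium and zinc list, 2 of 12 were higher and 1 lower (median -0.06). The annexin genes Anxa1 (112 ± 2.69 to 163 ± 17.0 RPM) and Anxa2 (1069 ± 160 to 1563 ± 277 RPM) rose, and the sodium-calcium exchanger gene Slc8a3 fell from 22.1 ± 0.921 to 10.9 ± 0.314 RPM.

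Of 5 mineral inhibitor and gamma-carboxylation genes, 2 were lower and none higher (median -0.04). The osteopontin gene Spp1 fell from 5417 ± 484 to 4509 ± 58.5 RPM and the carboxylase gene Ggcx from 52.7 ± 8.46 to 40.4 ± 3.66 RPM (SD, n = 3 each). Of 6 relatives of the described genes, 2 were lower and none higher (median -0.08). Mme, a peptidase of the same family as Phex, fell from 54.7 ± 2.59 to 31.7 ± 1.29 RPM, a log2 fold change of -0.77 (limma adjusted p = 1.42e-05), and Enpp2, which makes lysophosphatidic acid, fell from 24.1 ± 2.23 to 18.6 ± 1.23 RPM.

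**Figure D5:**
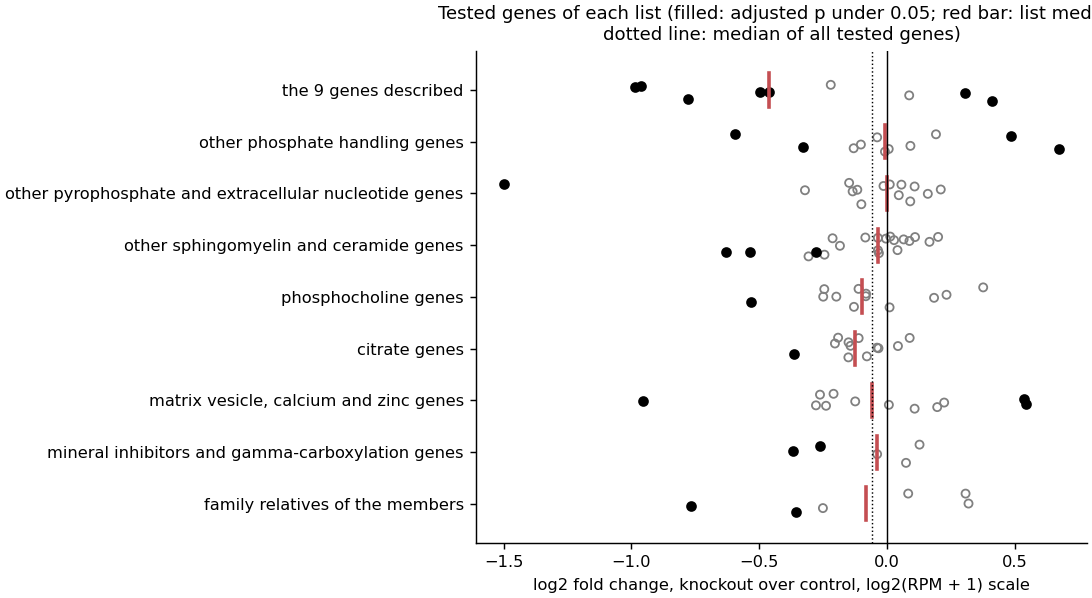
Log2 fold change (horizontal axis) of each tested gene in the 9 genes described and 8 related lists, filled where the adjusted p was under 0.05, with a red bar for each list's median and a dotted line for the median of all genes tested. Medians of the 8 lists lie from -0.13 to just under 0, and that of the 9 genes at -0.46.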

How the data were processed

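Libraries had been made with the Ion AmpliSeq mouse transcriptome panel, which reads 1 short amplicon per gene, per the labels' protocols. The authors deposited RPM values, reads per 1000000 reads, in 6 columns. For the aligner, counter, filters and genome build: not given in the sources used here. All values above 0 (100%) were whole multiples of 1 read within 0.1 read, so reads were recovered.

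RPM values were taken as log2(RPM + 1) for amplicons averaging 1 RPM or more and compared with limma 3.58.1 (R 4.3.3, empirical Bayes with a trend, two-sided, Benjamini-Hochberg over all 12846 tested, threshold 0.05). Fold changes on this scale understate changes of low genes. Ratios were tested by exact permutation. Phospho1 over Alpl, a sixth planned ratio, needs the level of Phospho1, which was not analysed here. Within groups, libraries differed beyond counting noise (chi-square per degree of freedom 4.54 to 7.80), so each was kept. Alternatives were other pseudocounts (0.1 and 10 RPM), filters (none and 5 RPM), TMM, median-of-ratios and quantile scaling, variance models, array weights, the replicate block, leaving out each library, and edgeR 4.0.16 and DESeq2 1.42.0 on recovered reads. The limma step was tested on simulated data. Gene positions are those of GENCODE M21 on GRCm38, matched by symbol; the amplicons' own positions were not used here.

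The members and lists were chosen with earlier results of these data known. The naming rule took all listed genes, Stat3, and up to 3 called genes of each list by absolute log2 fold change.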

Additional observations from a re-analysis of the deposited data

How the results depend on the processing

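The count of lower genes was 5 under each of the 18 alternatives except without control replicate 3, where Slc20a2 made it 6 (range 5 to 6 over the libraries left out). Slc13a5, Smpd3, Sgms2, Alpl, Phex and Ank passed under all 18, with log2 fold changes of -1.08 to -0.85, -1.03 to -0.79, -0.87 to -0.71, -0.55 to -0.44, -0.54 to -0.40 and 0.36 to 0.47. Slc20a1 passed under 14 of 18 (0.23 to 0.37), Slc20a2 under 1 (-0.36 to -0.13) and Enpp1 under none (0.01 to 0.17). The count of higher genes was 1 without a variance trend, and 1 to 2 over the libraries left out; the cause was not tested. Over all genes, 2142 passed, against 1392 with no filter (more genes tested), 995 without a variance trend and 1173 to 2019 over the libraries left out (fewer samples), with 1229 without control replicate 1, 1173 without control replicate 2 and 1322 without knockout replicate 2. On recovered reads edgeR called 1052 higher and 922 lower, and DESeq2 998 and 775. With the replicate number as a block the counts were 5 lower and 2 higher of the 9 genes and 2462 of all genes. Same-numbered libraries correlated at 0.0126, -0.0193 and 0.107 in their deviations from the group means, so the samples share a number and no pairing was assumed; replicate 3 of each group correlated best with its own number and the others did not. No ratio changed direction under another pseudocount or without a library. Counting error was at most 6.07% of a value for the 9 genes, and the SD between replicates was 3.09% to 16.4% of the mean.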

Other observations

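Some genes of phosphate and mineral control lay under the filter of 1 RPM and are given by reads, chosen after their values were seen. Mepe, which encodes an osteocyte matrix protein that Phex protects from cleavage, had 8, 7 and 14 reads in control replicates 1 to 3 and 0, 1 and 1 in knockout replicates 1 to 3. In the limma fit without a filter its adjusted p was 0.00863. Fgf23, the phosphate-wasting hormone that rises when Phex is lost, had 7, 7 and 10 reads in controls and 16, 10 and 10 in knockouts, or 0.601, 0.523 and 0.821 RPM against 1.36, 1.10 and 1.02 RPM. Every knockout library was above every control in RPM, and the fit without a filter did not call Fgf23 (limma adjusted p = 0.141). The kidney and gut phosphate importers Slc34a2 and Slc34a3 had 0 reads in all 6 libraries, which allows up to 0.224 RPM in the deepest and 0.329 RPM in the shallowest at 3 reads, for counting error only. Slc34a1 had 1 read in control replicate 2 and 1 in knockout replicate 2.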
